A study of Mus musculus with 10 samples.

Results

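The kinetochore and spindle checkpoint genes are 43 mouse genes whose products build the microtubule attachment site on the centromere or hold back anaphase until every chromosome is attached. The rule picks them by gene symbol alone, although the set was drawn up with earlier results of these data known, out of the 21774 protein-coding genes of the RefSeq annotation, where all 43 symbols were found as written. Of these genes 17 lie on the plus strand and 26 on the minus strand, and none is on a sex chromosome. At P28, 10 of the 43 were in the list of ARID2-occupied transcription start sites under their own name, against 16.8% of all protein-coding genes. At P28.5 there were 11, against 11.6%, and 8 were in both lists, against 8.48%.

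The lists come from CUT&RUN, which sequences the DNA fragments that a nuclease, tethered to an antibody, cuts from chromatin. CD1 mice received WIN 18,446, a blocker of retinoic acid synthesis, from postnatal day 1 to day 10 and a single dose of retinoic acid on day 11, so that spermatogenesis advanced in step. Spermatogenic cells, labelled as enriched for spermatocytes of prophase-I and metaphase, were taken at P28, 17 days after retinoic acid, and again at P28.5, when 17.5 days had passed. Each age gave 2 libraries for ARID2, a subunit of the PBAF form of the SWI/SNF remodeler, 2 for its catalytic subunit BRG1 with different antibodies, and 1 without primary antibody. The labels give no mutant allele, and all groups share the drug treatment. The labels do not say whether the 2 ARID2 libraries of an age came from separate animals.

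Each deposited list names the transcription start sites (TSSs) of the ARID2-enriched cluster that the authors drew at that age, with a chromosome, a position and a gene symbol. The P28 list held 11553 rows at 7144 distinct positions, and the P28.5 list 8514 rows at 5193 positions. A row carries no signal, strand or replicate value, so the results are counts of genes and distances, with no test and no replicate error. Levels are not given, and the cell type could not be checked against its markers. At P28, 3219 of the listed positions equalled an annotated plus-strand 5′ end and 3 a minus-strand 5′ end, and at P28.5 the numbers were 2669 and 3. A further 733 positions at P28 and 72 at P28.5 equalled a minus-strand 3′ end, and 3189 and 2449 equalled no transcript end of the annotation used here. A gene on the minus strand was therefore rarely listed at its own start, and a row that names such a gene need not mark a start site. With rows within 2000 bp of the gene's own 5′ ends only, 13.7% of all protein-coding genes were listed by name at P28 and 11.4% at P28.5, and the members' counts stayed at 10 and 11.

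A kinetochore is assembled anew on each centromere before division. Nucleosomes that carry CENP-A mark the site, the constitutive centromere network binds them, and the KNL1, MIS12 and NDC80 complexes link the network to spindle microtubules. Where microtubules are missing, BUB and MAD proteins and the kinase encoded by Ttk gather at the kinetochore and produce an inhibitor of the anaphase-promoting complex. In meiosis I sister kinetochores act as a unit, so that homologous chromosomes and not sister chromatids are pulled apart.

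The bases before the starts are shown here because the listed positions sit at their ends. Each line gives up to 100 bases that end just before the first 5′ end of the gene, annotated or listed, 5′ to 3′, from RefSeq GRCm38.p6 (the assembly of mm10). Stretches covered by an annotated exon were left out. Capitals mark letter groups found on either strand. The cell cycle homology region (CHR) was searched as TTTGAA and also as TTCGAA, and the CCAAT box by the letters of its name. The E2F letters were TTTCCCGC or else TTTGGCGC, and the GC box was GGGCGG. The MYB letters were NAACNG with T or C first and with either G or T before the final G. All of these genes lie on the plus strand. Those listed under their own name at both ages are Bub3 at chr7:131560267-131560366, Mad2l1 at chr6:66535121-66535220, Cenpl at chr1:161070669-161070766, Cenpn at chr8:116921567-116921666, Knl1 at chr2:119046938-119047037, Kntc1 at chr5:123749590-123749689 and Ska2 at chr11:87109161-87109260.
Bub3: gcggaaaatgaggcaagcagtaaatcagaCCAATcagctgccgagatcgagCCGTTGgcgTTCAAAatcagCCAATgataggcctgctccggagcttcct
Mad2l1: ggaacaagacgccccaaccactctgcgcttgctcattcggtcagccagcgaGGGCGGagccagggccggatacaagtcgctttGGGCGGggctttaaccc
Cenpl: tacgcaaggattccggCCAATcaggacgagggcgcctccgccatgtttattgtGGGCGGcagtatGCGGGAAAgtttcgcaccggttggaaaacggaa
Cenpn: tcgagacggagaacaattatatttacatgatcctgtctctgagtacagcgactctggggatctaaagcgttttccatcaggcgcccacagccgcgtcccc
Knl1: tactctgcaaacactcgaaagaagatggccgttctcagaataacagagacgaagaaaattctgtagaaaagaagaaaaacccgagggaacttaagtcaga
Kntc1: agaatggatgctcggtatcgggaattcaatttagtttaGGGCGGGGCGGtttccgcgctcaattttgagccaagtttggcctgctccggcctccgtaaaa
Ska2: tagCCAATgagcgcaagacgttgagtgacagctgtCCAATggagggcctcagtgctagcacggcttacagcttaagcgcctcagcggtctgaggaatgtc

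Those listed under their own name at 1 age are Ttk at chr9:83834551-83834650 and Cenpe at chr3:135212437-135212536 at P28, and Cenpu at chr8:46551919-46552018 and Zwint at chr10:72654746-72654845 at P28.5.
Ttk: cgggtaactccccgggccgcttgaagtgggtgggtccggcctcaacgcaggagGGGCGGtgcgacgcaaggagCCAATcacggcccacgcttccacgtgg
Cenpe: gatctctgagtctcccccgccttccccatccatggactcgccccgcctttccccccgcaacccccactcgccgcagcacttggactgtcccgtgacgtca
Cenpu: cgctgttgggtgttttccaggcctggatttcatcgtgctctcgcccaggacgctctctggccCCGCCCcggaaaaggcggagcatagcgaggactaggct
Zwint: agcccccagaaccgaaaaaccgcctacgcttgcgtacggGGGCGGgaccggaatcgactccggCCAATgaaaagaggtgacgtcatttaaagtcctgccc

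The last set is of plus-strand members in neither list, Bub1b at chr2:118598102-118598201, Cenpa at chr5:30666777-30666876 and Zw10 at chr9:49055476-49055575.
Bub1b: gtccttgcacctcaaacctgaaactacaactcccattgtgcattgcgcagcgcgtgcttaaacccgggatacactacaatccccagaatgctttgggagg
Cenpa: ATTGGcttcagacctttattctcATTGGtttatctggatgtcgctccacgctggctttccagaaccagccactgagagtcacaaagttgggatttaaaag
Zw10: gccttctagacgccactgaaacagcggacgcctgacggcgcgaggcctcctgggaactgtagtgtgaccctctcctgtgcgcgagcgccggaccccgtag

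Of these 14 stretches, CCAAT was present before Bub3, Cenpl, Ska2, Ttk, Zwint and Cenpa. The GC box was present before Mad2l1, Cenpl, Kntc1, Ttk, Cenpu and Zwint, and in Kntc1 its matches overlap. Before Bub3 the CHR letters stood between a MYB match and a CCAAT match. The stretches before Cenpn, Knl1, Cenpe, Bub1b and Zw10 held none of the letters searched, and in these windows that says nothing of any factor. Cenpk and Mis12, both listed by name, are not shown because an exon covers the bases before their first 5′ end.

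Listing was unevenly spread over the strands. All 13 members listed by name at either age were plus-strand genes. On that strand 10 of 17 members were listed at P28, against 26.0% of plus-strand protein-coding genes, 11 of 17 at P28.5, against 20.4%, and 8 of 17 at both ages, against 14.8%. None of the 26 minus-strand members was listed by name at either age, against 7.61% of minus-strand genes at P28 and 2.86% at P28.5. The name count therefore speaks for the plus-strand members alone.

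A second count took any listed position, whatever its name, within 2000 bp of an annotated 5′ end of a member. It found 16 of 43 members at P28, against 17.3% of all protein-coding genes, and 18 of 43 at P28.5, against 14.8%. At both ages 14 members had such a position, against 10.9%. Around these members there were 34 listed positions at P28, of which 23 carried the member's own name, and 36 at P28.5, of which 22 did. The positions under the member's own name lay close to a start, with a median distance of 0 bp and a largest distance of 247 bp at each age, and 12 equalled an annotated 5′ end at each age. Listed positions come from the TSS set that the authors clustered, and many equal no 5′ end of the annotation used here. Distances and repeated positions thus reflect that set and do not show where ARID2 sits. Over both rules and ages, 20 members were found and 23 were not.

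**Figure D1:**
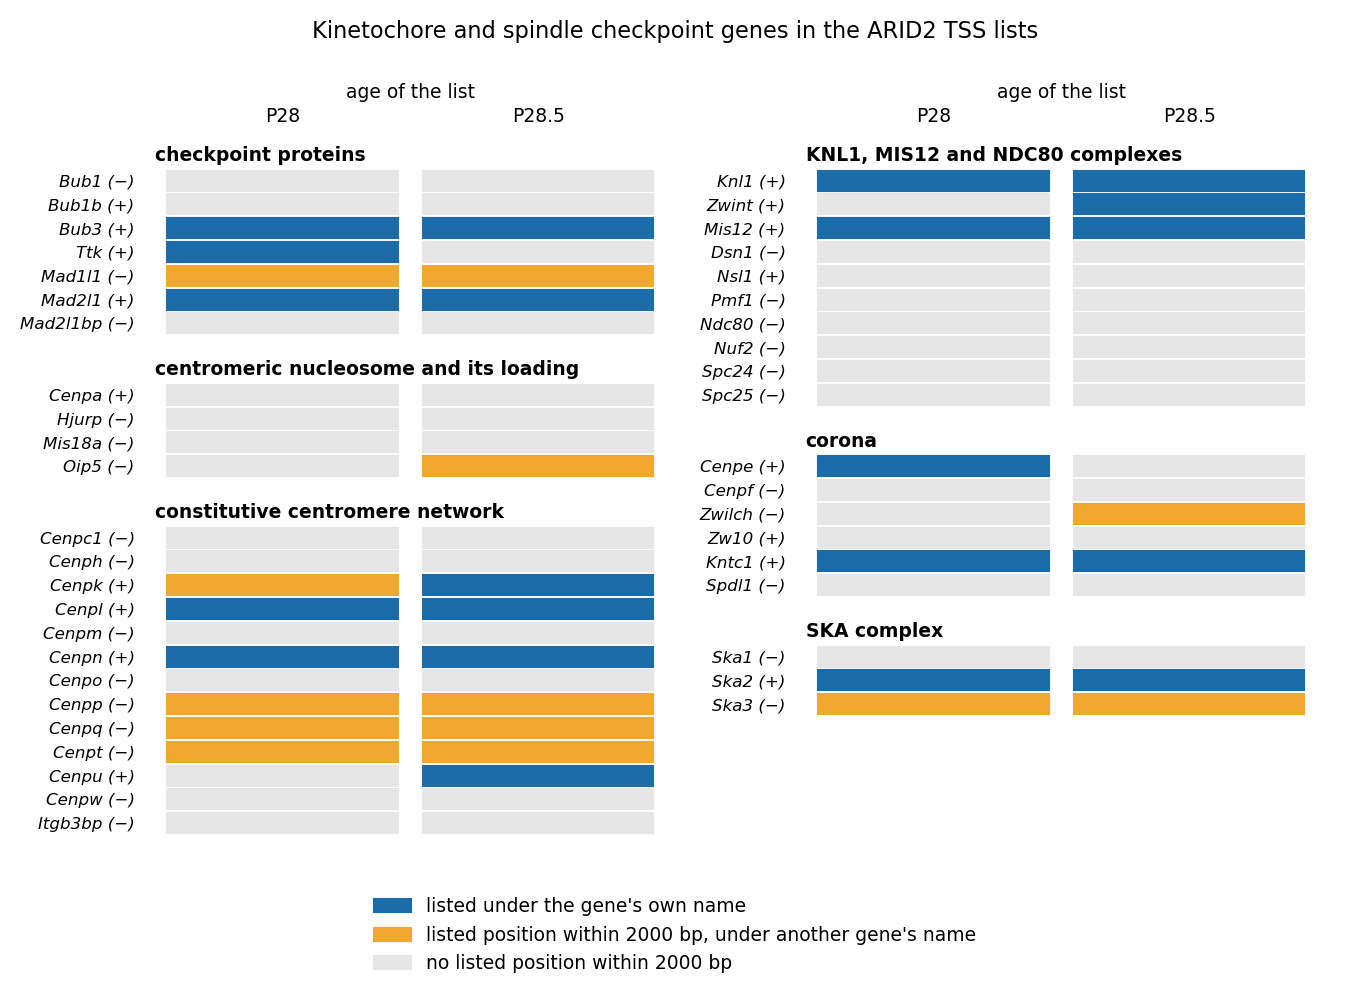
Listing of the 43 kinetochore and spindle checkpoint genes by role, with 1 row for each gene (its strand in brackets) and 1 column for each age. Blue tiles are genes listed under their own name (10 at P28 and 11 at P28.5), orange tiles are genes with a listed position within 2000 bp under another gene's name only, and grey tiles have neither.

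Among the 7 checkpoint genes, 3 were listed by name at P28, against 16.8% of all protein-coding genes, and 2 at P28.5, against 11.6%. Bub3 encodes the partner that brings BUB1 and BUBR1 to KNL1. It lies at chr7:131560367-131571895 and had 3 listed positions at both ages, 131560370, 131560374 and 131560494, all in an exon, and the first and last equal annotated 5′ ends. Mad2l1 encodes MAD2, the protein whose closed form captures CDC20. At chr6:66535221-66541107, it was listed at 66535226 and 66535468 at both ages, 5 and 247 bp inside the gene. Both genes kept the same positions at P28 and P28.5.

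Ttk encodes the kinase MPS1, which starts checkpoint signalling by phosphorylating KNL1. It was listed by name at P28 only. At chr9:83834651-83872390 it had 6 rows at 3 positions, 83834651, 83834652 and 83834689, and each was an annotated 5′ end of the gene. At P28.5 none of these was listed, and the nearest listed position lay 90422 bp away under the name Bckdhb.

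Mad1l1 encodes MAD1, which holds MAD2 at unattached kinetochores. It is a minus-strand gene, and a position named Nudt1 lay 19 bp upstream of its 5′ end at both ages. Nudt1 encodes a hydrolase of oxidised nucleotides and starts 14 bp from Mad1l1 on the plus strand. The other 3 checkpoint genes had no listed position within 2000 bp. Bub1 encodes the kinase that phosphorylates centromeric histone H2A, Bub1b the checkpoint protein BUBR1, and Mad2l1bp the protein p31comet, which helps to take the checkpoint complex apart. The nearest listed positions to Bub1 were 139998 bp away at P28 and 294179 bp at P28.5. For Bub1b, a plus-strand gene, they were 106792 and 209090 bp away. Those to Mad2l1bp lay 6600 and 7481 bp away.

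The 4 genes of the centromeric nucleosome and its loading were absent by name at P28, where 16.8% of all genes were listed, and at P28.5, where 11.6% were. Of these, Hjurp, Mis18a and Oip5 lie on the minus strand, where 7.61% of genes were named at P28 and 2.86% at P28.5. Cenpa encodes the centromeric histone H3 variant itself and is a plus-strand gene, with the nearest listed position 147722 bp away at both ages. Hjurp, its chaperone, was 206800 bp from a listed position at P28 and 521568 bp at P28.5. Mis18a, which primes centromeres for loading, was 283878 bp away at both ages. Oip5 encodes MIS18-beta, the partner of MIS18A. A position named Nusap1, after the gene of a spindle-associated protein, lay 207 bp inside Oip5 at P28.5 and was an annotated 5′ end of Nusap1. At P28 the nearest position to Oip5 was 24209 bp away.

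The constitutive centromere network gave 2 of 13 genes (15.4%) by name at P28, near the 16.8% of all genes, and 4 (30.8%) at P28.5, against 11.6%. By position it gave 6 (46.2%) at P28, against 17.3%, and 7 (53.8%) at P28.5, against 14.8%. Cenpl and Cenpn encode the partners of a complex that binds the CENP-A nucleosome. Cenpl, at chr1:161070767-161086724, had 4 rows at the position 161070767, its only annotated 5′ end, at both ages. Cenpn, at chr8:116921716-116941504, was listed at 116921667, which is 49 bp upstream of an annotated 5′ end, and at 116921740, which is one, at both ages.

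Cenpu and Cenpk were named at P28.5 only. Cenpu encodes a subunit that recruits Polo-like kinase 1 to the kinetochore. It had 4 rows at 2 positions, 46552019 and 46552069, both annotated 5′ ends, and at P28 the nearest listed position was 80721 bp away. Cenpk, a subunit of the CENP-H/I/K complex, was named at 104229388 at P28.5. At both ages the list also held 104228981 and 104229051, which lie in Cenpk, 15 and 85 bp downstream of an annotated 5′ end. They carry the name of Ppwd1, a peptidyl-prolyl isomerase gene that starts 63 bp from a Cenpk 5′ end on the other strand. By position Cenpk was thus found at both ages.

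The minus-strand genes Cenpp, Cenpq and Cenpt were found through neighbours at both ages, each at the same positions. Cenpt encodes a histone-fold protein that links centromeric DNA to NDC80, and a position named Thap11, after a zinc-finger transcription factor gene, lay 17 bp upstream of its 5′ end. Cenpq had a position named Mut (methylmalonyl-CoA mutase, Mmut in the annotation) 111 bp upstream. Cenpp had 4 positions named Nol8, a nucleolar protein gene, 128 to 188 bp upstream. Cenpp and Cenpq encode subunits of the CENP-O/P/Q/U group.

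The other 6 genes of the network had no listed position within 2000 bp. They are Cenpc1, which encodes the protein that ties CENP-A nucleosomes to the MIS12 complex, and Cenph, Cenpm, Cenpo, Cenpw and Itgb3bp (CENP-R). Their nearest positions at P28 ranged from 105851 bp for Cenph and 116361 bp for Cenpm to 2699051 bp for Cenpc1. At P28.5 they ranged from 54211 bp for Cenpm to 887040 bp for Cenpw.

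In the microtubule-binding KNL1, MIS12 and NDC80 complexes, 2 of 10 genes were found at P28 and 3 at P28.5, by name and by position alike. The 2 of 10 at P28 were near the shares of all genes, 16.8% by name and 17.3% by position, and the 3 of 10 at P28.5 stood beside 11.6% and 14.8%. Knl1 encodes the scaffold on which BUB proteins assemble. At chr2:119047119-119110497 it was listed at both ages at its 5′ end, 119047119, and 19 and 81 bp upstream. Mis12, which names its complex, was listed at 71019611, an annotated 5′ end, and 71019635 at both ages, within chr11:71019568-71027371. At P28.5 a further position, 71020178, lay 18 bp upstream of another Mis12 5′ end under the name of Derl2, a gene of endoplasmic reticulum protein degradation on the other strand.

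Zwint encodes the KNL1-bound protein that brings in the corona. It was listed at P28.5 only, with 3 rows at its 5′ end, 72654846, in the span chr10:72654846-72674964. At P28 the nearest listed position was 1324352 bp away. The remaining 7 genes of these complexes were in neither list. Nsl1, of the MIS12 complex, lies on the plus strand, 57623 bp from a listed position at P28 and 334426 bp at P28.5. Dsn1 and Pmf1 of the MIS12 complex and Ndc80, Nuf2, Spc24 and Spc25, which together form the NDC80 complex, lie on the minus strand. Spc25 was the nearest miss of all members, with a position named G6pc2 4860 bp from it at P28 and none within 441042 bp at P28.5. No gene of the NDC80 complex was found under either rule.

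The corona is the outermost kinetochore layer, which captures microtubules from the side. Of its 6 genes, Cenpe and Kntc1 were listed by name at P28 (33.3%, against 16.8% of all genes), and Kntc1 alone was at P28.5 (16.7%, against 11.6%). Cenpe encodes a kinesin motor that carries chromosomes to the spindle equator. It was listed at P28 at its 5′ end, 135212563, and 26 bp upstream, at the start of chr3:135212563-135273540, and at P28.5 the nearest listed position was 135430 bp away. Kntc1 encodes the ROD subunit of the RZZ complex, which brings dynein and MAD1 to kinetochores. With 7 annotated 5′ ends at chr5:123749692-123821593, it had 4 listed positions at both ages, 123749690, 123749691, 123749695 and 123749726, each within 2 bp of an annotated 5′ end.

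Kntc1 was the subunit of the RZZ complex listed at both ages. Zwilch, on the minus strand, had a position named Rpl4, after a ribosomal protein gene, 283 bp upstream of its 5′ end at P28.5, and at P28 nothing within 637907 bp. Zw10, on the plus strand, was 70191 bp from the nearest listed position at both ages. Cenpf, which encodes a large coiled-coil protein of the corona, and Spdl1, the dynein adaptor Spindly, were at least 370781 and 935830 bp away at both ages.

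The SKA complex strengthens the hold of NDC80 on shortening microtubules, and 1 of its 3 genes was listed by name at each age, against 16.8% and 11.6% of all genes. Ska2 had 1 listed position, its 5′ end at 87109261, at both ages, within chr11:87109261-87122974. Ska3, on the minus strand, had positions 52 and 63 bp inside it at both ages, both under the name of Mrpl57, a mitochondrial ribosomal protein gene. The nearest position to Ska1 was 469051 bp away at P28 and 60470 bp at P28.5.

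**Figure D2:**
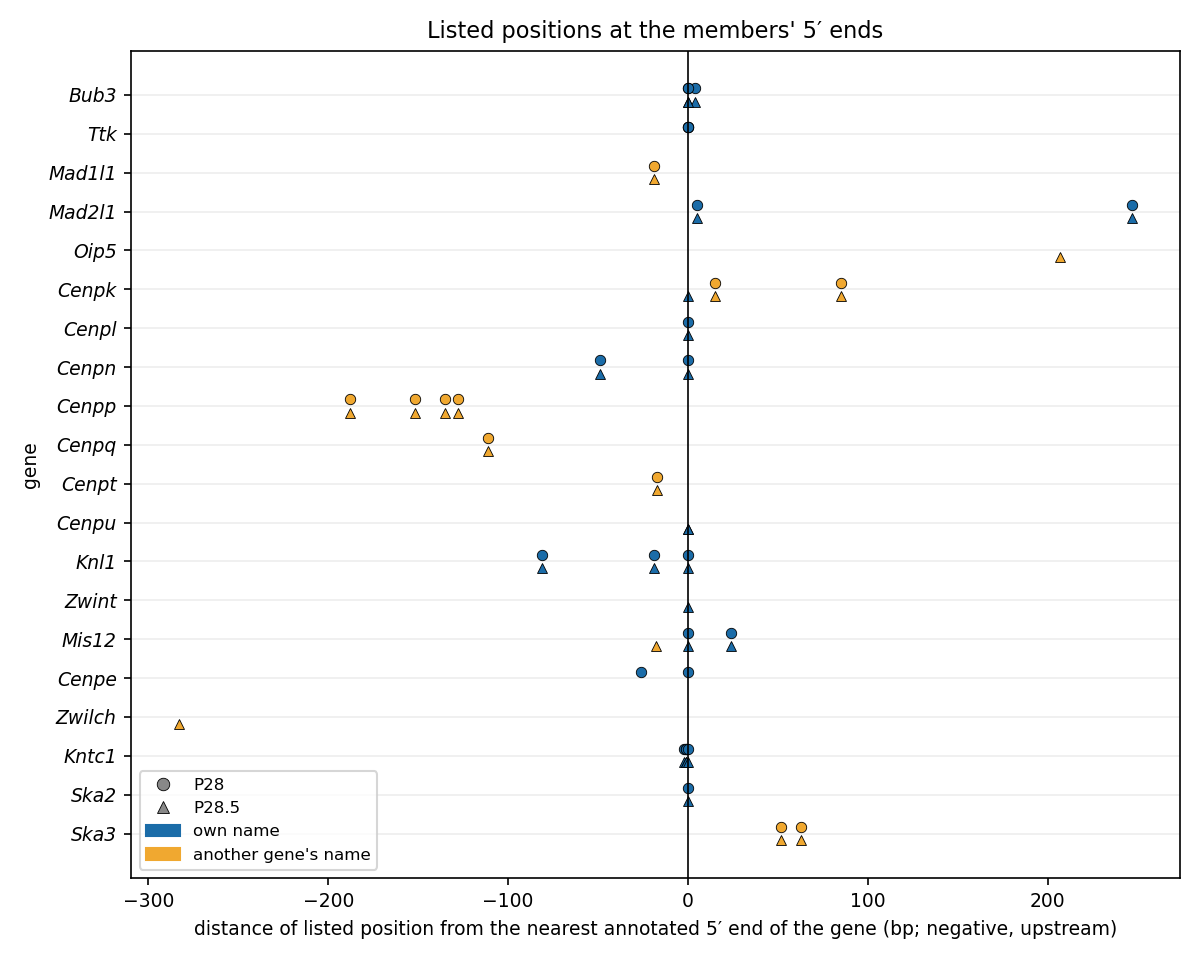
Distance in bp from each listed position within 2000 bp of a member to that gene's nearest annotated 5′ end, with 1 row for each of the 20 members found, circles for P28 and triangles for P28.5. Blue points carry the member's own name and orange points another gene's, and every point lies between 283 bp upstream and 247 bp downstream. Listed positions come from the TSS set that the authors clustered, so the distances do not show where ARID2 sits.

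Most members listed at one age were listed at the other, though from P28.5 back to P28 at about the share of all genes. Of the 10 members named at P28, 8 were named again at P28.5, where 50.5% of all genes named at P28 were. In the other direction 8 of 11 (72.7%) had been named at P28, near the 73.1% of all genes. By position 14 of 16 members recurred at P28.5, against 63.1%, and 14 of 18 (77.8%) had been found at P28, near the 73.9% of all genes. Ttk and Cenpe were named at P28 only, 2 of 43 members against 8.33% of all genes, while Cenpk, Cenpu and Zwint were named at P28.5 only, 3 of 43 against 3.13%. The 8 members named at both ages, Bub3, Mad2l1, Cenpl, Cenpn, Knl1, Mis12, Kntc1 and Ska2, each had the same positions under its own name at both, while Mis12 had the further position named Derl2 at P28.5. Over all genes named at both ages, 82.5% had the same positions. The authors formed the clusters separately at each age, and without a signal the lists cannot show whether a gene that left or entered lay near the border of its cluster. The paper also reports more round spermatids and smaller proportions of leptotene and zygotene spermatocytes at P28.5 than at P28. The part of cell composition in the lists was not tested.

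**Figure D3:**
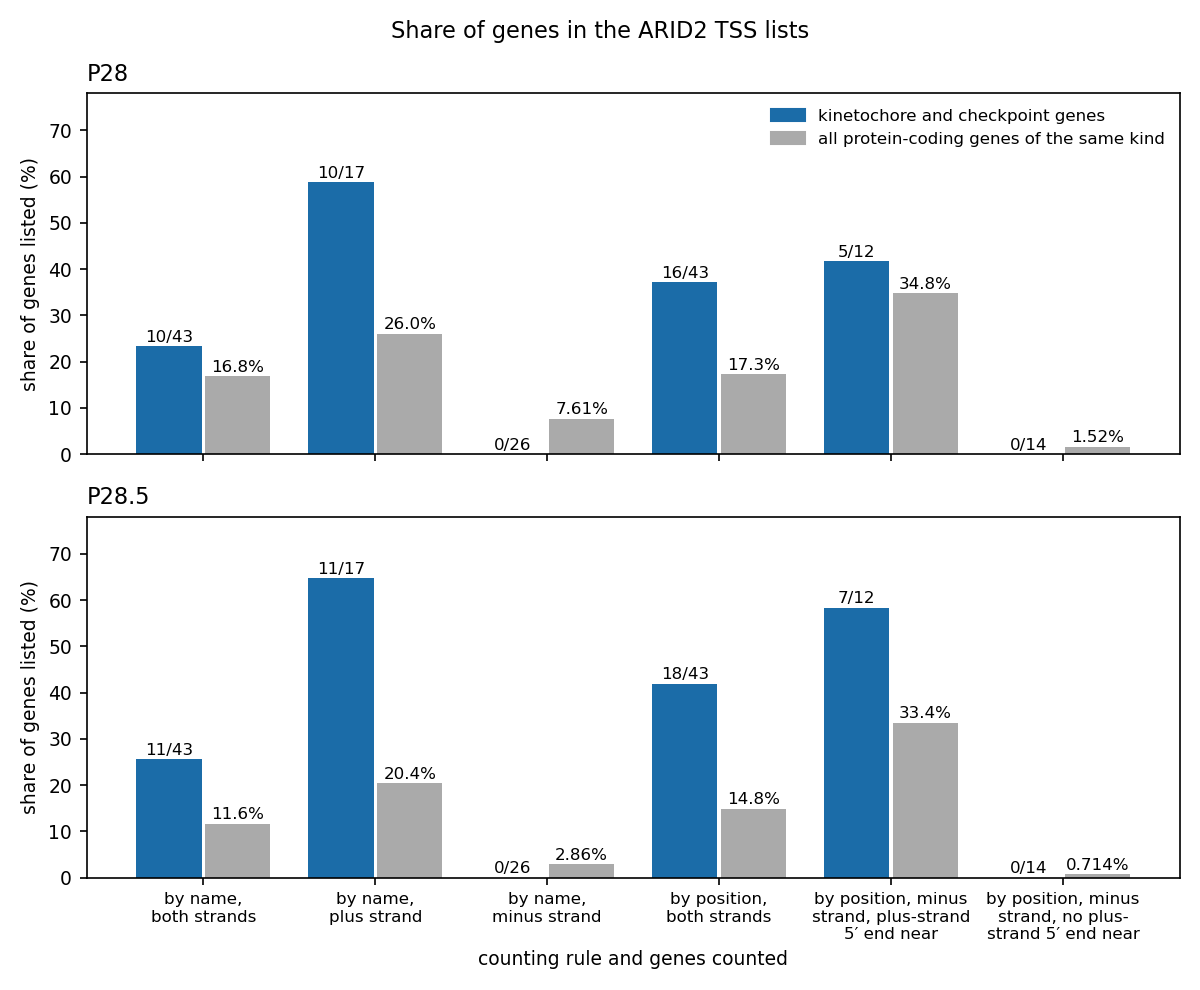
Share of genes in the lists, in percent, at P28 (top) and P28.5 (bottom) by counting rule, with members in blue (number listed of number counted above the bar) and all protein-coding genes of the same kind in grey. For plus-strand genes by name the bars stand at 10 of 17 members against 26.0% at P28 and 11 of 17 against 20.4% at P28.5. A bar has no error because the lists carry no replicate values.

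For the minus-strand members the position rule worked through a plus-strand neighbour. Of the 26, 5 had a listed position within 2000 bp at P28, against 9.58% of minus-strand genes, and 7 at P28.5, against 8.62%. An annotated plus-strand 5′ end of another gene lay within 2000 bp of 12 of them, at distances of 14 bp for Mad1l1 to 283 bp for Zwilch. Of these 12, 5 were found at P28, against 34.8% of minus-strand genes with such a neighbour, and 7 at P28.5, against 33.4%. The count at P28 was near the background. Among the 14 without such a neighbour none was found, where 1.52% of like genes were at P28 and 0.714% at P28.5. Absence from the lists was thus the usual state of such genes, and says little of Bub1, Mad2l1bp, Hjurp, Cenpc1, Cenph, Cenpm, Cenpw, Dsn1, Pmf1, Spc24, Spc25, Cenpf, Spdl1 and Ska1.

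The 5 minus-strand members that had such a neighbour but no listed position were Ndc80, Cenpo, Mis18a, Nuf2 and Itgb3bp. Ndc80 starts 38 bp from Spdya, a gene for an activator of cyclin-dependent kinases, and the P28.5 list held a position named Spdya 24762 bp from Ndc80. Cenpo starts 48 bp from a 5′ end of Ptrhd1, and Itgb3bp 230 bp from Efcab7. The neighbours of Mis18a, 49 bp away, and of Nuf2, 113 bp away, are the long noncoding RNA genes Gm17518 and Gm34624. In all 7 minus-strand members found, the listed positions carried the name of a protein-coding neighbour, and that neighbour had the nearest 5′ end. Whether the ARID2 signal belongs to the member, the neighbour or both cannot be told apart in these lists.

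**Figure D4:**
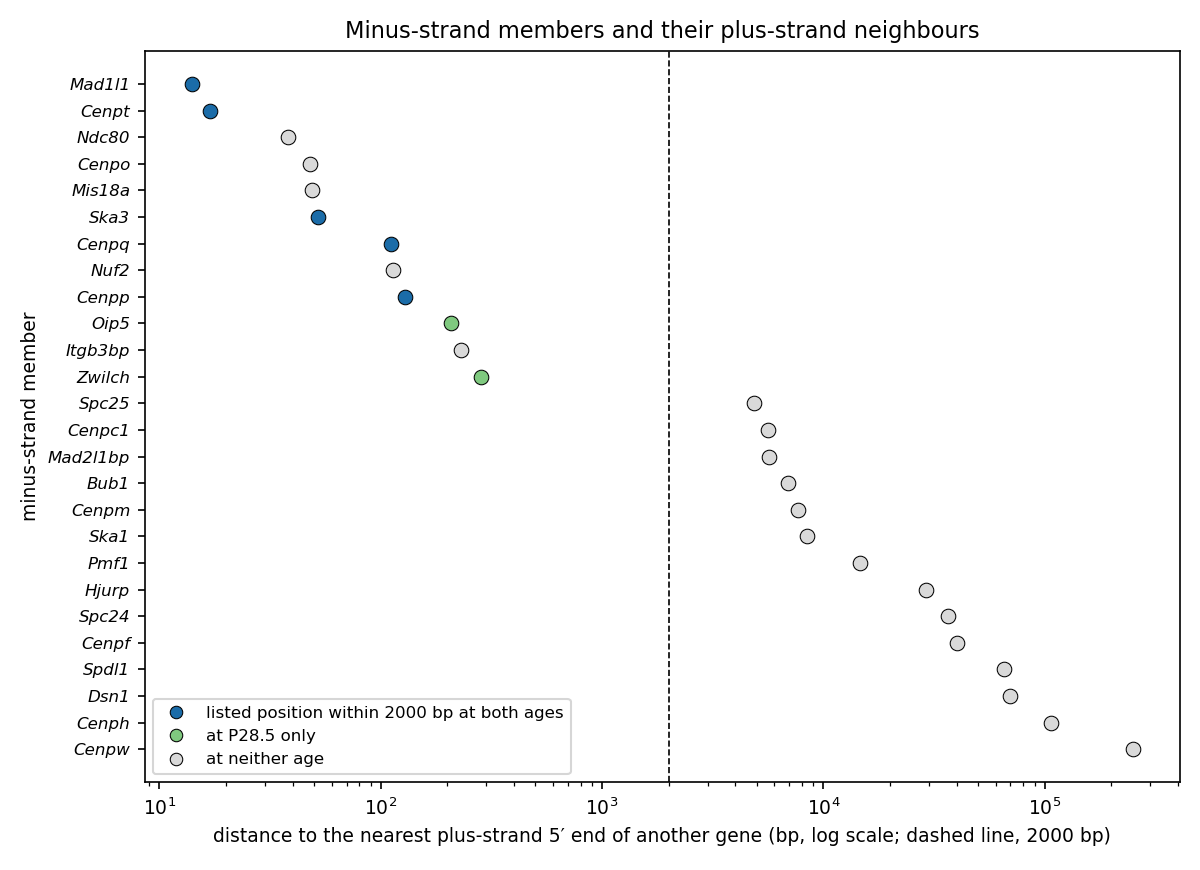
Distance in bp, on a log scale, from each of the 26 minus-strand members to the nearest plus-strand 5′ end of another gene, coloured by whether a position within 2000 bp of the member was listed at both ages, at P28.5 only or at neither. All 7 members found lie left of the dashed line at 2000 bp, among the 12 with such a neighbour, and the 14 genes right of it were not found.

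Genes with CpG-rich promoters were more often listed, and the members have such promoters. Of plus-strand genes, 8.55% in the lowest of 5 CpG quintiles and 46.2% in the highest were named at P28. The observed-over-expected CpG ratio, taken within 500 bp of the gene's start, had a median of 0.779 over the 43 members, from 0.47 for Mad2l1bp to 1.01 for Knl1, and 0.516 over all protein-coding genes. In quintiles of all genes, 19 members fell in the fifth, 19 in the fourth, 5 in the third and none lower. In the fourth quintile 4 of 10 plus-strand members were named at P28, against 39.6% of plus-strand genes of that quintile, and 5 of 10 at P28.5, against 33.3%. In the fifth 5 of 6 were named at P28, against 46.2%, and 6 of 6 at P28.5, against 47.0%. At P28 the fourth-quintile members were thus listed at about the rate of other genes with like promoters. The single plus-strand member of the third quintile was Ttk.

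By listing, the CpG ratio had a median of 0.788 in the 13 members named, from 0.621 for Ttk to 1.01. It was 0.677 in the 4 plus-strand members not named, Bub1b, Cenpa, Nsl1 and Zw10, from 0.656 to 0.789. The 7 minus-strand members found by position had a median of 0.864 and the 19 not found 0.763. These ranges overlap. The part of CpG content in the listing of the members was not tested.

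**Figure D5:**
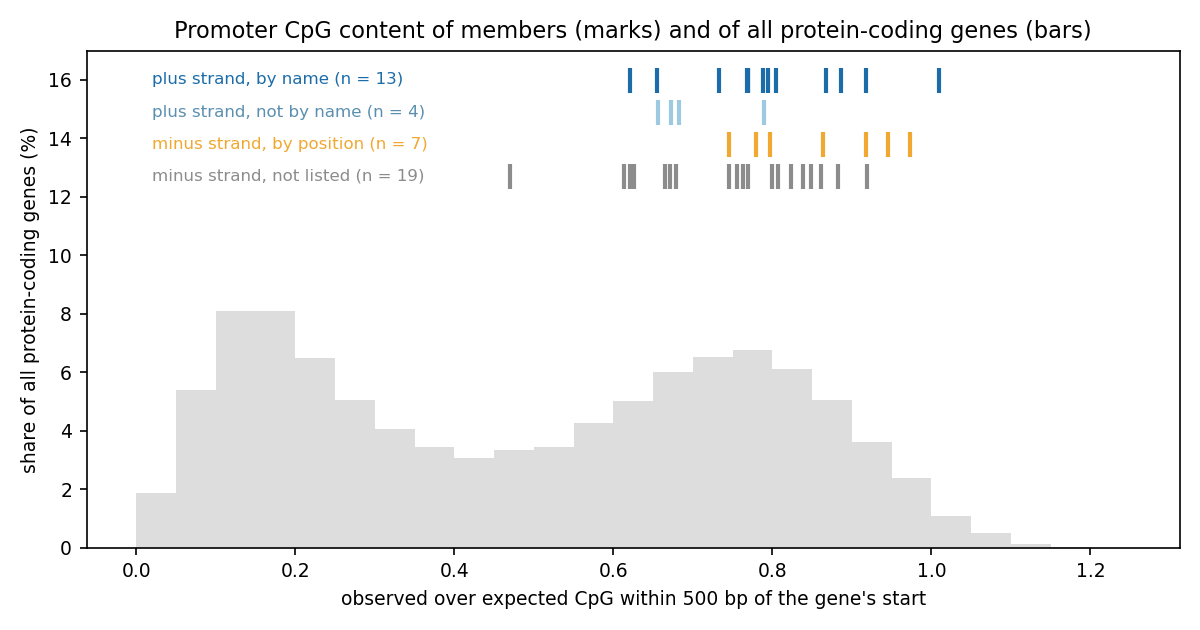
Observed-over-expected CpG ratio, taken within 500 bp of the gene's start, with all 21774 protein-coding genes as grey bars (percent of genes) and the 43 members as vertical marks in 4 rows by strand and listing. The height of a row has no scale. The marks lie between 0.47 and 1.01, and the marks of the 4 rows overlap.

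The letter groups were also counted in RefSeq promoter windows of 250 bases before to 50 after a start, on either strand. Windows were found for 39 members, 43 windows in all. The CHR letters, a site class of genes switched on for cell division, were in 51.2% of member windows and in 17.6% of the 21263 windows of all protein-coding genes. CCAAT was in 65.1% against 38.2%, the GC box in 62.8% against 46.2%, the MYB letters in 34.9% against 26.5%, and the E2F letters in 6.98% against 2.02%. Members of a common gene class were set against all genes here, and no test was made.

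The letters were also counted in members named and not named. CHR letters were in 7 of the 16 windows of members named at either age and in 15 of the 27 windows of the others. CCAAT was in 14 of 16 and 14 of 27, and the GC box in 13 of 16 and 14 of 27. The 16 windows came from 13 genes and the 27 from 26, so a gene with several windows counts more than once. Cenpk gave 3 windows and Bub3 gave 2. Over all genes named at either age, CHR was in 14.4% of windows, CCAAT in 41.0% and the GC box in 61.9%. The CHR letters that set the members apart from all genes were thus no more common in members named than in the others. Most of the others are minus-strand genes, which the name rule seldom lists, so this comparison is largely one of strands. On the plus strand the members not named had 3 windows, those of Bub1b, Cenpa and Zw10. All 3 held the CHR letters, 66.7% CCAAT and 33.3% the GC box, too few windows for a comparison. Letters alone are not binding sites.

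Beside these genes, 21 other kinetochore and centromere genes were looked up in the same way. By name 1 of 21, Aurkb, a chromosomal passenger kinase, was listed at P28, against 16.8% of all genes, 3 at P28.5, against 11.6%, and none at both ages, against 8.48%. Most of the 21 lie on the minus strand, whose genes the name rule seldom lists. Of those on the plus strand, Aurkb was named at P28, and Birc5 and Kif18a were named at P28.5. The plus-strand genes Cenpi, Sgo2a, Meikin, Aurkc and Plk1 were named at neither age. Of all plus-strand genes 26.0% were named at P28 and 20.4% at P28.5. By position 4 of 21 were found at P28 and 5 at P28.5, against the 17.3% and 14.8% of all genes, and 2 at both, against 10.9%. These names were chosen after their values were seen. Those found at both ages were Cdca8, which encodes a chromosomal passenger subunit, and Cenpx, which encodes a histone-fold subunit. Trip13, whose product remodels MAD2 together with p31comet, was found at P28 only, through a position 16 bp from its 5′ end. Cdca8, Cenpx and Trip13 lie on the minus strand and were found by position only. Whether the signal belongs to them or to a neighbour cannot be told apart. Sgo1, a protector of centromeric cohesin, Birc5, another passenger subunit, and Kif18a, a kinesin of chromosome alignment, were found at P28.5 only. Plk1 and Aurkc, both on the plus strand, were in neither list. At P28 their nearest listed positions were 71391 and 372970 bp away, and at P28.5 they were 26394 and 632039 bp away. The paper reports ARID2 peaks near both promoters at P28, called by another method than the clusters. For Plk1 it also reports ARID2 and BRG1 enrichment. The difference between the 21 genes and the 43 members was not tested.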

How the data were processed

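The authors aligned CUT&RUN reads to mm10, and the submitters' processing notes name Bowtie2, SAMtools and deepTools. Per the study's methods, coverage was made without blocklisted regions and duplicates, scaled by effective library size, expressed as a log2 ratio to the no-antibody control and averaged over the 2 ARID2 libraries. RefSeq TSSs were then clustered by k-means. The deposited lists hold the positions and gene symbols of the TSSs in the cluster with ARID2 enrichment, separately for each age, and no counts, signal or depth. The BRG1 and control libraries were not analysed here.

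Symbols were matched to RefSeq GRCm38.p6 as written or by a synonym of a single gene. Listed positions, whatever their name, were counted within 2000 bp of every annotated 5′ end. CpG content was taken within 500 bp of the outermost start, in 5 quintiles. No tests were made, because the lists hold no replicate values. The counting was checked on planted positions. Every member is accounted for by rule, and other genes are named where a row near a member carries their name or their start is close by. Sequences are shown for members listed within 50 bp of a 5′ end and for 3 in neither list. Stretches with fewer than 60 bases outside annotated exons were left out, as for Mad1l1 and Cenpt. The members, role lists and rules were chosen with earlier results of these data known. Python 3.11.15, numpy 2.4.6 and matplotlib 3.10.9 were used.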

Additional observations from a re-analysis of the deposited data

How the results depend on the processing

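The count by name at P28, P28.5 and both ages was 10, 11 and 8 with symbols as written only and with rows near the gene's own starts only, and 0 at each with minus-strand members only. The count by position (16, 18 and 14) stayed within 1.5 times with windows of 500, 1000 and 5000 bp, with the outermost start and with curated transcripts. It moved to 5, 7 and 5 with minus-strand members alone, and to the same 5, 7 and 5 in those with a plus-strand 5′ end within 2000 bp, a choice made after seeing the data. With plus-strand members alone it was 11 of 17 at P28, 11 at P28.5 and 9 at both ages. The shares of plus-strand genes were 25.0%, 20.9% and 15.2%. Without positions to which another gene has a nearer 5′ end it was again 11 (of 43) at P28, 11 at P28.5 and 9 at both ages. By that rule 13.6%, 11.2% and 8.11% of all genes were found. Counting genes of 1 strand, or fewer positions, lowers a count by construction. In 104 of 105 values per member the number of positions did not change between windows, and the exception was Spc25 at P28, with 1 position within 5000 bp.

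No paired analysis was possible because each list was made from averaged replicates, and leaving out a replicate was not possible for the same reason. Depth per TSS is unknown. The lists show membership of a cluster and no level of ARID2, so neither a graded difference between ages nor occupancy of an unlisted gene can be read from them.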
